A study of Mus musculus with 19 samples.

Results

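Mouse embryonic stem (ES) cells that had recovered reporter fluorescence under AICAR were compared with cells taken after 2 days of differentiation. The 3 libraries titled as GFP-positive after AICAR and the 2 day-2 libraries were chosen by their titles, 5 of the 19 libraries of the series, and 1 undifferentiated library served as the reference for the day-2 changes. Every cell carries a destabilised green fluorescent protein (GFP) at Rex1, the locus of Zfp42, a gene switched off when ES cells leave the naive state. AICAR is a nucleoside that enters the purine pathway, becomes an AMP mimic inside the cell and activates the energy sensor AMPK.

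The undifferentiated cells were grown with Lif and 2i, a pair of inhibitors acting on Mek and on Gsk3. Day-2 cells were differentiated in a serum medium (DM) with neither, and the labels of both libraries state a sort for cells lacking SSEA1, a surface antigen of ES cells, and GFP. Only 1 of their 2 titles repeats that sort. AICAR GFP-positive cells descend from such sorted day-2 cells, were held in DM with AICAR and were taken at day 15. Their sorting field reads "no sorting", and GFP is given by the titles and the reporter field. AICAR, time in culture and reporter gate therefore change together between the compared groups and cannot be told apart, and the undifferentiated library differs from both in medium. Nothing in the labels says that libraries of a group are separate cultures, and the spread behind each p-value may be technical.

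Naive ES cells correspond to the epiblast before implantation and are held by Lif acting through Stat3 and by a network that includes Esrrb, Klf4, Tfcp2l1 and Nanog. When they leave this state they pass through a formative stage, in which Otx2, Pou3f1, Fgf5 and the de novo DNA methyltransferases are switched on while Pou5f1 and Sox2 persist. Conversion back is rare without an external stimulus.

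Reads in genes ranged from 6671053 to 14233421 over the 6 libraries, and levels are given as CPM, a gene's reads per 1000000 reads of a library whose size is scaled by TMM factors. AICAR GFP-positive replicates 1 and 2 form a sequencing project of their own, per the file headers, and replicate 3 shares its project with all other libraries. Replicate 3 stands apart: the chi-square per degree of freedom was 9.84 between replicates 1 and 2, 47.4 and 44.2 between each of these and replicate 3, and 7.03 between the day-2 libraries. Of 8981 genes with at least 10 CPM in 1 of the 3 libraries, 389 were over 2-fold higher in replicate 3 than in the mean of the other two and 98 over 2-fold lower. The genes most raised in replicate 3, such as Gkn2 and Loxl2 at 60.5 and 99.7 CPM, were higher still in the AICAR GFP-negative library. There Gkn2 had 312 CPM and Loxl2 346 CPM, and the reason was not tested. Results that rest on replicate 3 are given with and without it.

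Of 13714 genes tested, 2258 were higher in AICAR GFP-positive than in day-2 cells (16.5%) and 2045 were lower (14.9%) at an adjusted p under 0.05 in edgeR's quasi-likelihood test. Counts for gene lists below are to be read against these shares. Some genes are on several lists, so the counts of different lists are not independent. At least a 2-fold difference was present in 1262 of the higher and 1079 of the lower genes, and the 2 groups did not overlap for any of the 4303 genes called. That count comes from the libraries that gave the calls and is no separate support. Genes without a call, such as Dppa4 and Gbx2, did not overlap either. Without AICAR GFP-positive replicate 3 the counts were 3140 and 3052, and within the first project alone they were 3079 and 2654. That fit holds 1 GFP-positive library, replicate 3, assumed to vary like the day-2 pair, with 1 residual degree of freedom. Without day-2 replicate 1 they fell to 441 and 374, and without day-2 replicate 2 to 689 and 574. None of the 4303 genes had the opposite sign under any other setting that tested it. Single calls were checked in this way for 100 of the called genes named below, and not for others such as Gata6, Sox17 and Prkaa1. Of the 100, 24 lost the call without day-2 replicate 1 and 21 without day-2 replicate 2, at adjusted p from 0.05 to 0.202, and each kept its direction.

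Zfp42, the reporter gene itself, had 449 CPM in undifferentiated cells, 27.9 and 21.0 CPM in the day-2 libraries and 644, 576 and 422 CPM in AICAR GFP-positive replicates 1 to 3. Its level follows the gate and checks the labels, and it is no independent result. The RefSeq promoter table (GRCm38.p6, a later build than the mm9 gene tables, matched by symbol) holds an octamer, the letters bound by Pou5f1, upstream of 2 of the 15 naive genes it lists, Zfp42 and Zfp296. Both windows are shown because these genes were high together in the GFP-positive cells, with the octamer in capitals and the flanks in lower case, 5′ to 3′ on the strand of the gene, chr8:43307148-43307235 (minus strand) and chr7:19577136-19577223 (plus strand).
Zfp42: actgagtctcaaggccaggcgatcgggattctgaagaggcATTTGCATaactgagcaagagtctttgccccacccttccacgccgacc
Zfp296: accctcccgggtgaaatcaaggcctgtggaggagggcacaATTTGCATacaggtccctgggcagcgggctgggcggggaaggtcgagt
The octamer begins at base -186 from the Zfp42 start site and at base -111 from that of Zfp296. A match describes the letters and is no evidence of binding.

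The naive network returned to high expression. Of 23 naive genes tested, 16 were higher in AICAR GFP-positive than in day-2 cells and 1 was lower, with a median log2 difference of 2.78 against 0.05 over all genes tested. The 16 include Zfp42, the reporter gene, which follows the gate and is no independent result. The count of higher genes was 16 to 18 under all the other settings tried, the first project alone and each left-out library included.

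Esrrb, an orphan nuclear receptor of the naive core, had 338 CPM in undifferentiated cells, 11.4 and 8.17 CPM at day 2 and 393, 330 and 254 CPM in the GFP-positive replicates. All 3 GFP-positive libraries lay above both day-2 libraries and on either side of the undifferentiated one, and the log2 fold change over day 2 was 5.05 (SE 0.27, adjusted p = 0.000334). Klf4, a Stat3 target, rose from 10.3 and 15.8 CPM to 324, 270 and 277 CPM, a log2 change of 4.48 (SE 0.23, adjusted p = 0.000317). Tfcp2l1, another Stat3 target, rose from 1.43 and 1.75 CPM to 67.1, 60.9 and 39.4 CPM, below the 109 CPM of the undifferentiated library. Prdm14, which represses the formative programme and the de novo methyltransferases, had 1 and 2 reads in the day-2 libraries and 27.7, 25.8 and 19.9 CPM in the GFP-positive ones, a ratio of 122 with a 95% counting interval of 41.5 to 590. Tbx3, Nr0b1, Nr5a2, Klf2, Klf5, Tdh, Tcl1, Zfp296, Tet2 and Zfp57 also rose.

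Recovery was not even across the network. Nanog, the factor that sets the efficiency of self-renewal, rose from 61.0 and 45.8 CPM to 251, 238 and 188 CPM (log2 change 2.08, SE 0.19, adjusted p = 0.000947), but remained under the 564 CPM of undifferentiated cells in all 3 libraries (log2 difference -1.32, adjusted p = 0.0142). Dppa5a, an RNA-binding protein abundant in naive cells, fell at day 2 and had 779, 702 and 481 CPM in the GFP-positive libraries against 552 and 487 CPM at day 2, a difference that did not pass (log2 0.33, adjusted p = 0.253) but passed without GFP-positive replicate 3 (0.51, adjusted p = 0.00432) and was -0.11 within the first project. Mael, a germline piRNA factor on the naive list, was the member that went down, from 35.6 and 34.7 CPM to 5.89, 11.7 and 8.15 CPM, after a rise at day 2. Fgf4, Dppa2, Dppa3, Dppa4 and Gbx2 did not pass in this comparison; Dppa3 passed as lower without replicate 3 (log2 -2.71), Dppa2 and Dppa4 were at -0.72 and -0.58 within the first project, which has 1 GFP-positive library, and Gbx2 passed as higher without replicate 3 (1.34) and in DESeq2 (1.03). The call of Mael was lost without day-2 replicate 1 (adjusted p = 0.0503).

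General pluripotency genes included several that day 2 had barely touched. Pou5f1, the octamer-binding factor of all pluripotent states, had 1630 CPM in undifferentiated cells, 1423 and 1206 CPM at day 2 and 1331, 1281 and 1016 CPM in the GFP-positive cells, and the groups overlapped (log2 difference -0.12, SE 0.15, adjusted p = 0.566). In the untreated day-15 library it had 23.9 CPM. Sox2, its partner, rose from 97.5 and 66.4 CPM to 607, 513 and 459 CPM, above the 338 CPM of undifferentiated cells in each library. Of 18 such genes tested, 8 were higher and 3 lower than at day 2 (44.4% and 16.7%), the lower share being near the 14.9% of all genes. Lin28a and Lin28b, which block maturation of let-7 microRNAs, were among the lower ones: Lin28a went from 117 and 115 CPM to 38.9, 30.1 and 46.7 CPM, close to its undifferentiated 35.4 CPM.

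**Figure D1:**
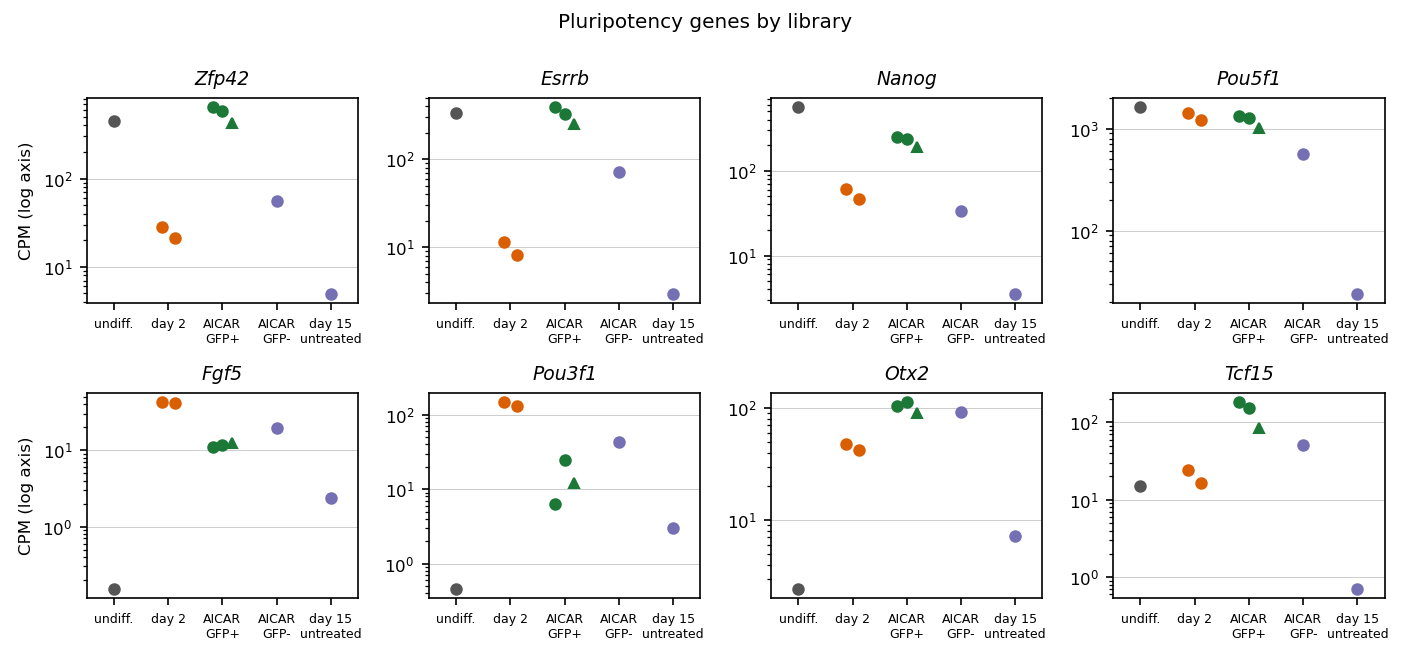
CPM (log axis, scale set per panel) of 8 pluripotency genes in single libraries of undifferentiated, day-2, AICAR GFP-positive, AICAR GFP-negative and untreated day-15 cells; each point is 1 library and the triangle is GFP-positive replicate 3. Zfp42, Esrrb and Nanog lie far above day 2 in all 3 GFP-positive libraries, Fgf5 and Pou3f1 lie between day 2 and the undifferentiated library, and Otx2 and Tcf15 lie above both.

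Genes of the formative and primed epiblast moved in both directions. Of 24 tested, 11 were lower and 7 higher in AICAR GFP-positive than in day-2 cells, with a median log2 difference of -1.13; 9 day-2 rises were reversed. The count of lower genes was 4 without day-2 replicate 1 and 6 without day-2 replicate 2, and 9 to 14 under the other settings.

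Fgf5, a growth factor of the epiblast after implantation, had 0.152 CPM in undifferentiated cells, 43.2 and 41.3 CPM at day 2 and 11.1, 11.9 and 12.4 CPM in the GFP-positive libraries. It fell by 1.84 on the log2 scale (SE 0.15, adjusted p = 0.000754), and against the 1 read of the undifferentiated library the ratio was 77.5 with a 95% counting interval of 13.8 to 3069. Pou3f1, a POU factor that redirects Pou5f1 to formative enhancers, went from 149 and 133 CPM to 6.41, 24.7 and 12.2 CPM (log2 change -3.28, SE 0.46, adjusted p = 0.00346) against 0.455 CPM before differentiation, with an adjusted p of 0.05 without day-2 replicate 1. Both genes therefore lay between the other groups in every GFP-positive library. Sox3, a SoxB1 factor of the epiblast and neural plate, was back at 3.21, 3.78 and 3.97 CPM from 39.5 and 35.2 CPM, near its undifferentiated 5.62 CPM. Sall2, Sema6a, Grhl2 and Car4 were reversed in part, the first 3 with adjusted p from 0.0561 to 0.0794 when either day-2 library was left out. Each fell by less than it had risen at day 2. Grhl2 and Car4 remained above the undifferentiated library by 3.80 and 5.96 on the log2 scale, where Car4 had 1 read.

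Otx2, the homeobox factor that drives the exit from naive pluripotency, did the opposite. It rose at day 2 from 2.43 to 47.3 and 42.3 CPM and stood higher again in AICAR GFP-positive cells, at 103, 113 and 90.0 CPM (log2 change over day 2 of 1.19, SE 0.14, adjusted p = 0.00213). Tcf15, a bHLH factor of cells primed to leave the naive state, was not called at day 2, with 15.2 CPM before and 23.9 and 16.6 CPM after, and had 184, 152 and 84.4 CPM in GFP-positive cells (log2 change 2.79, SE 0.36, adjusted p = 0.00276). Naive factors and these formative factors were thus high in the same libraries. In a bulk library, genes high in the same cell cannot be told apart from genes high in different cells of the sample, nor fewer cells of a type from less RNA per cell.

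At day 2, 803 genes were higher (5.86%) and 887 lower (6.47%) than in the undifferentiated library, and 698 and 717 of these differed at least 2-fold. Such a day-2 change was called reversed where AICAR GFP-positive cells differed from day 2 at least 2-fold in the opposite direction, and kept where they did not differ from day 2 but still differed at least 2-fold from the undifferentiated library. It was called extended where they had gone at least 2-fold further, and a change was called added where only the GFP-positive cells differed from both. These comparisons share the day-2 or the undifferentiated libraries, so the counts are a description of these libraries.

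Of the 1415 day-2 changes, 745 were reversed, which is 5.43% of the genes tested and 52.7% of the day-2 changes. The share was 58.4% of the genes that had fallen at day 2 (419 of 717) and 46.7% of those that had risen (326 of 698). Of the reversed genes, 464 ended within 2-fold of the undifferentiated library, 229 fell short of it and 52 went past it. Fallen genes ended within 2-fold in 314 of 419 cases and risen genes in 150 of 326. A further 304 changes were kept (2.22% of the genes tested, 189 rises and 115 falls), 22 were extended, and 344 met none of these definitions, of which 159 had moved back by under 2-fold. Added changes numbered 324 (2.36%), 194 of them higher and 130 lower.

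These counts depend on the number of day-2 libraries. Without day-2 replicate 1, 233 genes were reversed, 90 kept and 67 added, and without day-2 replicate 2 the counts were 203, 68 and 97. Without AICAR GFP-positive replicate 3 they were 1255, 493 and 668. Of the added genes found without replicate 3, 290 were among the 324, which is 89.5% of the shorter list and 43.4% of the longer one. When day-2 changes were taken by fold from 1 day-2 library and the later change from the other, so that no day-2 library served both steps, 46.9 to 52.1% of the changes moved back at least 2-fold and 1.67 to 2.96% went further.

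**Figure D2:**
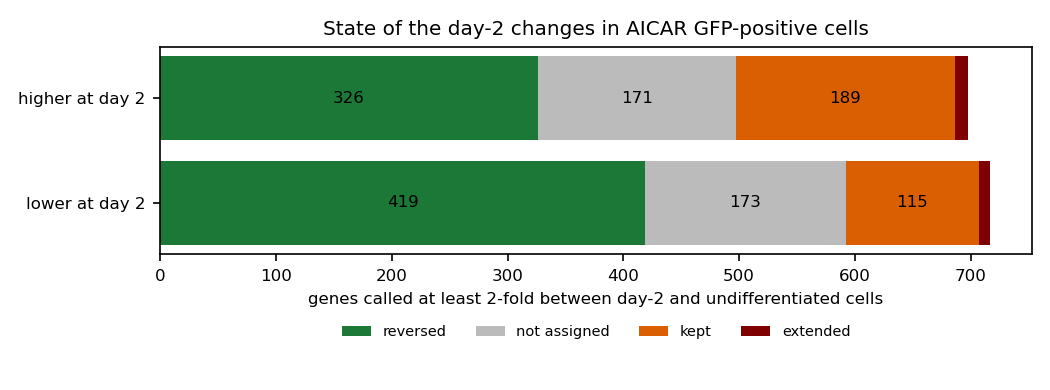
Number of genes that differed at least 2-fold between day-2 and undifferentiated cells, by direction, divided by their state in AICAR GFP-positive cells (reversed, not assigned, kept, extended). Reversed genes form the longest segment in both bars, 326 of 698 risen and 419 of 717 fallen genes.

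Reversal of a day-2 fall reached genes that were silent at day 2. Inhbb, the beta-B subunit of activins and inhibins, had no read in either day-2 library, 6.53 CPM in undifferentiated cells and 52.6, 64.9 and 28.4 CPM in the GFP-positive ones, at least 251-fold higher than day 2 and past the undifferentiated level. Mras, a Ras-family GTPase that activates Raf through Shoc2, was likewise at 0 reads at day 2 and had 43.3, 33.3 and 22.9 CPM, at least 167-fold higher, against 27.2 CPM before differentiation. Jam2, a junctional adhesion molecule, went from 176 CPM to 1.30 and 0.438 CPM and back to 187, 222 and 99.6 CPM. Ntn1, the guidance cue and survival factor netrin-1, went from 53.3 CPM to 0.260 and 0.584 CPM and back to 66.4, 58.5 and 32.1 CPM. For these 4 genes no GFP-positive library came near a day-2 library.

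Reversal of a day-2 rise returned other genes to near silence. Pdlim3, a PDZ-LIM protein of the actin cytoskeleton, had 0.152 CPM before differentiation, 11.8 and 16.1 CPM at day 2 and 0, 0.196 and 0.220 CPM in GFP-positive cells (log2 change -6.58, SE 0.64, adjusted p = 0.00107). Thbs4, an extracellular matrix glycoprotein, went from 0.304 CPM to 7.14 and 8.03 CPM and back to 0.298, 0.457 and 0.220 CPM. Myh6, the alpha myosin heavy chain of heart muscle, went from 2.13 CPM to 23.9 and 28.8 CPM and back to 1.72, 2.41 and 1.10 CPM.

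Kept changes included pluripotency and transcription genes. Utf1, a chromatin-bound factor of pluripotent cells, rose at day 2 from 137 to 457 and 406 CPM and was at 429, 378 and 312 CPM in the GFP-positive libraries, a difference from day 2 that did not pass (log2 -0.21, SE 0.16, adjusted p = 0.336). Within the first project, with 1 GFP-positive library, the value was -0.47 (adjusted p = 0.0361). Bcl11a, a zinc-finger repressor, had 0.607 CPM before differentiation, 14.5 and 17.1 CPM at day 2 and 19.6, 14.7 and 10.9 CPM afterwards. Ak7, an adenylate kinase of cilia and flagella, kept its fall, with 31.9 CPM before, 0.779 and 1.02 CPM at day 2 and 1.19, 1.30 and 1.65 CPM in GFP-positive cells. Slc30a2, a zinc exporter, also kept its fall, from 27.3 CPM to 2.47 and 2.48 CPM and then 1.86, 3.20 and 4.08 CPM.

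Extended changes went further from the undifferentiated library than day 2. Besides Otx2, Arhgef28, a guanine nucleotide exchange factor, rose from 1.21 CPM to 13.8 and 15.3 CPM and then to 62.1, 56.7 and 61.6 CPM (log2 change over day 2 of 2.05, SE 0.15, adjusted p = 0.000554). Ryr3, an intracellular calcium channel, rose from 2.73 CPM to 9.22 and 9.92 CPM and then to 53.5, 49.4 and 38.6 CPM. Abcb1a, a P-glycoprotein drug exporter, fell from 74.2 CPM to 31.0 and 35.9 CPM and then to 8.80, 10.2 and 10.7 CPM, so its 3 groups stood in clearly separate ranges. Zp3, an egg-coat glycoprotein, fell from 28.7 CPM to 5.84 and 4.52 CPM and then to 0.448, 1.17 and 0.661 CPM, with an adjusted p of 0.0592 for the second step without day-2 replicate 1.

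Added changes set the GFP-positive cells apart from both other groups. Jarid2, a subunit of Polycomb repressive complex PRC2, had 295 CPM before differentiation, 345 and 353 CPM at day 2 and 862, 1030 and 729 CPM in the GFP-positive libraries (log2 change over day 2 of 1.32, SE 0.17, adjusted p = 0.00236). Dazl, an RNA-binding protein of germ cells, rose to 52.2, 71.7 and 40.0 CPM from 10.3 and 8.90 CPM. Slfn3, a Schlafen family gene, rose to 7.31, 7.63 and 6.61 CPM from 0.779 and 0.584 CPM.
Among the added falls, Pla2g1b, a secreted phospholipase, went from 34.9 and 29.2 CPM to 1.27, 3.85 and 3.42 CPM, and Arhgef19, another guanine nucleotide exchange factor, from 12.5 and 10.4 CPM to 0.298, 0.457 and 0.881 CPM.

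The untreated day-15 and the AICAR GFP-negative library were not used in these definitions. The GFP-negative library was over 2-fold above the untreated day-15 library in 13.8% of 12918 genes with enough reads and over 2-fold below it in 18.2%. Of the 190 added rises with enough reads, 51 were over 2-fold above and 19 below (26.8% and 10%), and of the 117 added falls, 14 were above and 41 below (12% and 35%). The shares above and below were 15% and 33.6% for kept falls, 17.5% and 22.8% for kept rises, 30.5% and 19.6% for reversed falls, and 13.7% and 44% for reversed rises, so they were not particular to the added genes. With 1 library on each side these shares have no replicate check. Tcf15, for example, had 51.1 CPM in AICAR GFP-negative cells and 0.702 CPM in untreated day-15 cells, and Otx2 had 91.3 and 7.14 CPM.

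In 8 lines grown from GFP-positive colonies and held in Lif with 2i, 8 of the kept, extended or added genes were examined, a choice made after values were seen. Otx2 ranged from 1.19 to 2.96 CPM with a median of 2.17 CPM, and Tcf15 from 6.92 to 13.6 CPM with a median of 11.7 CPM. Ak7 ranged from 32.7 to 51.5 CPM (median 43.3 CPM), Abcb1a from 64.9 to 79.3 CPM (median 74.9 CPM), and Utf1 from 158 to 213 CPM (median 195 CPM). For these 5 genes no colony line overlapped the 3 GFP-positive libraries. Jarid2 ranged from 285 to 460 CPM (median 345 CPM), below the GFP-positive libraries. Spry4, in contrast, ranged from 21.8 to 48 CPM, above the 15.2 CPM of the undifferentiated library in all 8 lines and overlapping GFP-positive replicate 3. Tet1, with a range of 244 to 497 CPM and a median of 366 CPM, stayed above the 194 CPM of the undifferentiated library in all 8 lines and below the GFP-positive libraries.

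Of 11 regulators of DNA methylation tested, 5 rose and 4 fell, and the falls included the de novo methyltransferases. Tet2, Prdm14 and Zfp57, which rose, are also on the naive list, and Dnmt3a and Dnmt3b on the formative list. Dnmt3b, a de novo methyltransferase, had 141 CPM before differentiation, 1906 and 1788 CPM at day 2 and 230, 307 and 420 CPM in the GFP-positive cells (log2 change -2.53, SE 0.23, adjusted p = 0.000935). Dnmt3a went from 55.3 CPM to 582 and 558 CPM and then to 260, 292 and 198 CPM, so it remained above the undifferentiated library (log2 2.18, adjusted p = 0.00837), and its fall from day 2 had an adjusted p of 0.053 without day-2 replicate 1. Dnmt3l, their cofactor, fell from 331 and 287 CPM to 34.8, 93.8 and 116 CPM, a call lost when either day-2 library was left out (adjusted p = 0.119 and 0.0818). Dnmt1, the maintenance methyltransferase, rose by 0.46 on the log2 scale (adjusted p = 0.0382), a call lost in 4 of the 5 fits without 1 library (adjusted p from 0.1 to 0.202, the exception being GFP-positive replicate 3) and at 0.26 within the first project (0.252). Tet2, which oxidises 5-methylcytosine, rose from 11.2 and 11.4 CPM to 307, 334 and 145 CPM (log2 change 4.54, SE 0.42, adjusted p = 0.000919). Tet1 rose from 106 and 204 CPM to 907, 819 and 599 CPM, past the 194 CPM of undifferentiated cells. Zfp57, which protects methylation at imprinted regions, rose from 78.2 and 64.4 CPM to 750, 743 and 445 CPM. Tet3 did not pass (log2 0.04, adjusted p = 0.927), and the entry that joins Tdg, a glycosylase of the demethylation route, with Gm9855 fell by 0.74 (adjusted p = 0.00382).

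Receptors and targets of Lif signalling were higher in a medium whose description names no Lif. Of 16 genes tested, 9 were higher and 1 lower than at day 2, and 8 day-2 falls were reversed. Of the higher ones, Klf4, Klf5 and Tfcp2l1 are also on the naive list. Lifr, the Lif receptor, had 24.9 CPM in undifferentiated cells, 7.14 and 5.55 CPM at day 2 and 150, 138 and 176 CPM in the GFP-positive cells (log2 change 4.60, SE 0.20, adjusted p = 0.000317), well past the undifferentiated level. Il6st, its signalling partner gp130, rose from 14.4 and 12.6 CPM to 90.0, 79.6 and 101 CPM. Socs3, a feedback inhibitor induced by Stat3, had 194 reads in undifferentiated cells, 15 and 13 at day 2 and 200, 200 and 377 in the GFP-positive libraries (log2 change 3.57, adjusted p = 0.00775). These are raw reads. The TMM-scaled size was 6587868 for the undifferentiated library and 13406327, 15329252 and 9076510 for GFP-positive replicates 1 to 3. In replicates 1 and 2 the Socs3 level was therefore below that of undifferentiated cells. Pim1, a kinase and Stat3 target, fell by 0.87 on the log2 scale (adjusted p = 0.00483). Lifr had 402 CPM in AICAR GFP-negative and 87.7 CPM in untreated day-15 cells, so its level does not follow the reporter. Without either one of the day-2 libraries 5 of the list's genes were still higher.

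Of 17 genes of the Erk response, 8 were higher and 1 lower. The higher ones were the feedback inhibitors Spry2, Spry4 and Spred2, the transcription factors Etv4, Etv5, Egr1 and Egr2, and Phlda1. Of these, Etv4 and Etv5 are also on the formative list. Among the other feedback genes Dusp4, a phosphatase, fell by 0.85 on the log2 scale (adjusted p = 0.00568), and Dusp1, Dusp5, Dusp6 and Spred1 did not pass. Spry4, a feedback inhibitor of the pathway, was added: it had 15.2 CPM in undifferentiated cells, where Mek was inhibited, 14 and 12.4 CPM at day 2, and 91.0, 76.8 and 42.2 CPM in the GFP-positive cells (log2 change 2.41, SE 0.34, adjusted p = 0.00357, and 0.0576 or 0.0527 without day-2 replicate 1 or 2). Spred2 was also added, and Egr1 and Spry2 reversed their day-2 falls, Egr1 with an adjusted p of 0.0625 without day-2 replicate 1. Etv5 had 0.0558 without day-2 replicate 2. Without either one of the day-2 libraries 4 of the list's genes were higher. In the Wnt response, 6 of 16 genes were higher and 2 lower; Notum, a secreted Wnt deacylase, went from 58.4 CPM to 0.649 and 0.438 CPM and back to 77.3, 82.3 and 55.2 CPM, whereas Cdx1, a caudal homeobox factor, had 44.5 CPM before differentiation and 0.448, 0.652 and 0.551 CPM in GFP-positive cells, over 1 and 0 reads at day 2, a rise that was not called without either day-2 library, within the first project or in DESeq2 (adjusted p = 0.118). The Wnt shares were 37.5% higher and 12.5% lower, beside 16.5% and 14.9% of all genes. In the Nodal and TGF-beta pathway 8 of 17 were higher and 3 lower (47.1% and 17.6%). Pcsk6, a convertase that activates Nodal, was back at 79.5, 72.6 and 94.3 CPM from 14.7 and 15.5 CPM. In the BMP pathway 6 of 15 were higher and 3 lower (40% and 20%). Its ligand Bmp4 went from 64.2 CPM to 3.25 and 2.04 CPM and back to 49.2, 51.7 and 39.2 CPM, while Id3, a BMP target, fell further, from 16.4 and 22.2 CPM to 8.80, 10.6 and 8.15 CPM, with an adjusted p of 0.0923 without day-2 replicate 2.

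In the AMPK pathway, which AICAR acts on through a mimic of AMP, 10 of 28 genes were higher and 2 lower than at day 2, with a median log2 difference of 0.31. Only 3 were higher when either day-2 library was left out. Cpt1a, the enzyme that admits fatty acids to mitochondria, had 136 CPM in undifferentiated cells, 12.3 and 12.7 CPM at day 2 and 84.8, 80.6 and 85.5 CPM in the GFP-positive cells (log2 change 2.74, SE 0.13, adjusted p = 0.000317). Ulk1, the kinase that starts autophagy and an AMPK substrate, rose from 30.5 and 37.9 CPM to 117, 106 and 127 CPM. Foxo3, a transcription factor phosphorylated by AMPK, was added, at 109, 99.4 and 58.4 CPM against 33.6 and 37.7 CPM, a call lost when either day-2 library was left out (adjusted p = 0.122 and 0.085). Prkaa1, the catalytic subunit itself, rose by 0.46 on the log2 scale (adjusted p = 0.0474). The GFP-negative library, which had AICAR too, held 26.1 CPM of Cpt1a and 55.4 CPM of Ulk1, and the untreated day-15 library 39.7 and 54.5 CPM.

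Genes of purine synthesis and salvage were lower: 11 of 19 fell and none rose, with a median log2 difference of -0.65. The count was 5 without day-2 replicate 1 and 8 to 13 under the other settings. Atic, the enzyme whose substrate is the phosphorylated form of AICAR, had 324 CPM in undifferentiated cells, 393 and 361 CPM at day 2 and 227, 216 and 212 CPM in GFP-positive cells (log2 change -0.79, SE 0.11, adjusted p = 0.00323). Adk, adenosine kinase, which phosphorylates AICAR, went from 46.1 CPM to 150 and 126 CPM and back to 55.3, 47.2 and 51.2 CPM. Gmps, the last enzyme of GMP synthesis, fell from 299 and 274 CPM to 130, 127 and 155 CPM, and Prps1, which makes the ribose phosphate donor, from 81.7 and 95.3 CPM to 32.4, 37.1 and 44.4 CPM. The summed level of the list was 2829 to 2949 CPM in the 3 GFP-positive libraries, 3946 and 4151 CPM at day 2, 2323 CPM in AICAR GFP-negative and 1309 CPM in untreated day-15 cells. In undifferentiated cells it was 3839 CPM. Both the lowest and the highest of these sums were thus in cells without AICAR, and an effect of AICAR on them was not tested.

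**Figure D3:**
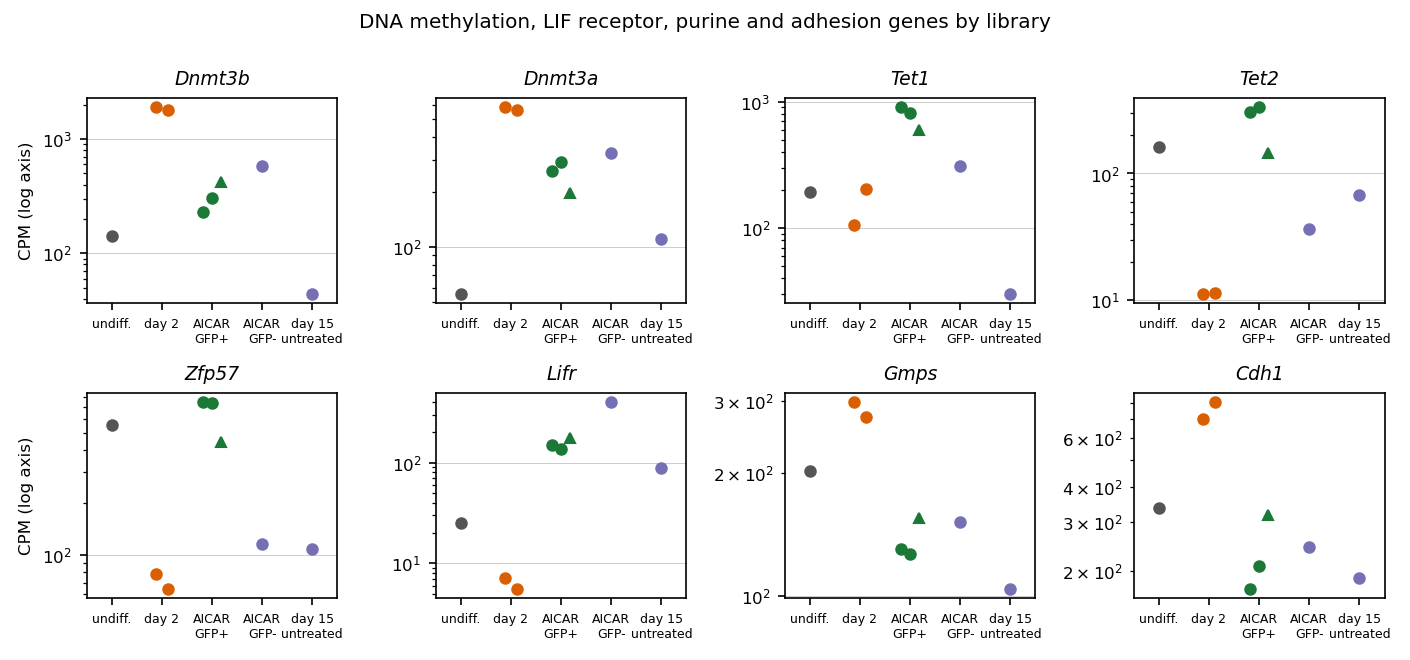
CPM (log axis, scale set per panel) of 8 genes in single libraries, drawn as in the plot of pluripotency genes. Tet1, Tet2, Zfp57 and Lifr lie above day 2 in all 3 GFP-positive libraries, and Dnmt3a, Dnmt3b, Gmps and Cdh1 lie below it.

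Transcripts of the 2-cell-like state, a rare condition of ES cell cultures that resembles the early cleavage embryo, were far below their day-2 level. Of 17 such genes 16 fell and none rose. The exception was Eif1a, a translation initiation factor (log2 difference 0.08, adjusted p = 0.676). Zscan4c, a zinc-finger gene that marks the state, had 76.0 CPM in undifferentiated cells, 381 and 686 CPM at day 2 and 0.224, 1.89 and 2.53 CPM in the GFP-positive libraries (log2 change -8.49, SE 0.58, adjusted p = 0.000418). The Zscan4 and Usp17l genes are near-identical copies among which reads could be split, so they count as few independent genes. Tmem92 had 13.1 and 22.2 CPM at day 2 and no read in any GFP-positive library, at least 219-fold lower. Untreated day-15 cells were low too, with 11.9 CPM of Zscan4c, as were AICAR GFP-negative cells with 13.5 CPM, and the colony lines ranged from 23.9 to 177 CPM with a median of 69.5 CPM. Without Eif1a, which had 106 to 134 CPM in the GFP-positive libraries, the list summed to 1.79, 8.94 and 12.2 CPM in them, 1401 and 2629 CPM at day 2 and 290 CPM before differentiation.

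Epithelial adhesion genes were lower in AICAR GFP-positive cells. Of 20 genes of the cell adhesion switch, 10 fell and 3 rose. Only 1 and 2 fell without day-2 replicate 1 and 2, and 4 without GFP-positive replicate 2. Cdh1, E-cadherin, had 336 CPM in undifferentiated cells, 703 and 808 CPM at day 2 and 173, 209 and 318 CPM in the GFP-positive ones (log2 change -1.70, SE 0.25, adjusted p = 0.00374). Esrp1, an epithelial splicing factor, went from 1.21 CPM to 71.7 and 74.7 CPM and back to 2.31, 8.09 and 12.7 CPM (adjusted p of 0.0625 and 0.055 without day-2 replicate 1 and 2), and Epcam from 36.6 CPM to 236 and 217 CPM and then to 88.5, 128 and 116 CPM (0.0683 without day-2 replicate 1). Zeb1, a repressor of epithelial genes, moved the other way, from 24.4 CPM to 2.21 and 1.61 CPM and back to 52.4, 42.0 and 27.9 CPM. Replicate 3 held the highest level of the GFP-positive group for 14 of the list's genes.

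Among imprinted genes 12 of 34 were lower than at day 2 and 1 higher. Rian, a maternally expressed non-coding RNA of the Dlk1-Dio3 region, went from 243 CPM to 1038 and 1003 CPM and back to 166, 164 and 362 CPM. Impact, Grb10 and Dlk1 were also lower than at day 2. Only 3 and 4 imprinted genes were lower without day-2 replicate 1 and 2, and Rian (adjusted p = 0.0602) and Grb10 (0.0532) lost their call without replicate 1, and Grb10 also without replicate 2 (0.0596).

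In energy metabolism, 6 of 24 glycolysis and hypoxia genes rose and 2 fell (25% and 8.33%, beside 16.5% and 14.9% of all genes), with a median log2 difference of -0.55. Their summed level was 9453, 8255 and 13176 CPM in the GFP-positive libraries against 16414 and 13971 CPM at day 2. Pfkp, the platelet phosphofructokinase, rose from 46.9 and 44.2 CPM to 247, 319 and 376 CPM, and Ldhb, a lactate dehydrogenase subunit, from 104 and 86.7 CPM to 385, 251 and 336 CPM. The falls were in Ddit4, an inhibitor of mTORC1 (log2 -1.22), and the joined entry of Eno1, an enolase, and Gm5506 (-1.24). Of 36 genes of oxidative phosphorylation 4 rose and 2 fell, shares of 11.1% and 5.56% that lie below those of all genes. In the stress and amino acid response 3 of 20 rose and 4 fell (15% and 20%), shares near those of all genes. Of its single genes, Phgdh, the first enzyme of serine synthesis, went from 225 and 189 CPM to 29.6, 54.8 and 56.3 CPM. Mthfd2, of the mitochondrial folate pathway, went from 73.0 and 62.8 CPM to 22.9, 21.9 and 25.0 CPM. Of 20 p53 targets 5 rose and 1 fell (25% and 5%), and of 20 germline genes 3 rose and 5 fell (15% and 25%). Sterol and fatty acid synthesis (3 up, 2 down of 24), cell division (3 and 1 of 20) and lysosome and autophagy (3 and 1 of 22) lay below the shares of all genes in both directions.

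**Figure D4:**
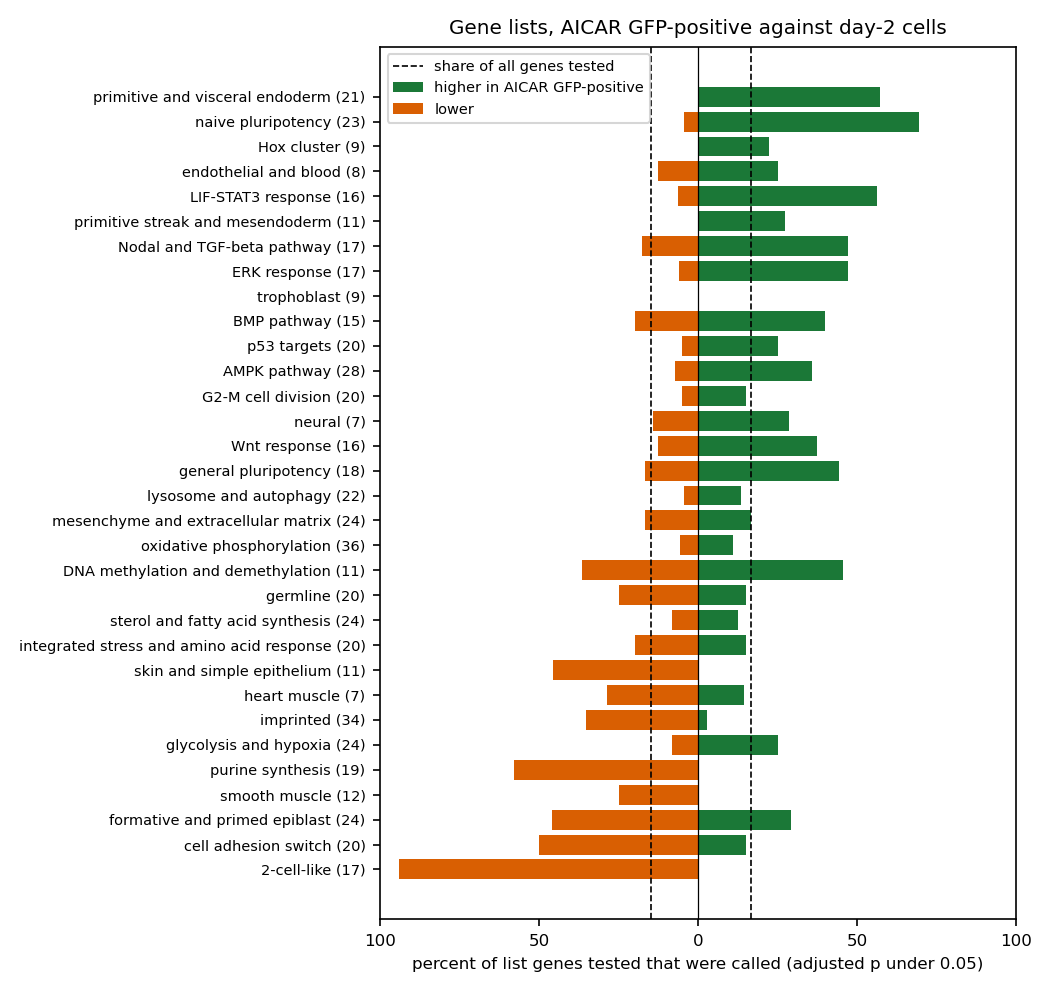
Percent of the tested genes of each of the 32 lists (number tested in brackets) that were higher (right) or lower (left) in AICAR GFP-positive than in day-2 cells, ordered by median log2 difference; dashed lines mark the shares over all genes tested, 16.5% and 14.9%. Endoderm and naive lists stand at the top and 2-cell-like genes at the bottom.

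Markers of primitive and visceral endoderm, the extra-embryonic lineage beside the epiblast, were raised in the same libraries. Of 21 tested, 12 rose and none fell, with a median log2 difference of 5.06, and replicate 3 was the highest GFP-positive library for all 21. Their summed level was 565 and 704 CPM at day 2, and 869, 1619 and 13692 CPM in GFP-positive replicates 1 to 3, against 53898 CPM in AICAR GFP-negative and 31080 CPM in untreated day-15 cells. Cubn, an endocytic receptor of visceral endoderm, had 6.62 and 2.19 CPM at day 2 and 101, 91.1 and 619 CPM in the GFP-positive libraries (log2 change 5.91, SE 1.19, adjusted p = 0.0114). Col4a2, a basement membrane collagen, had 12.6 and 10.1 CPM and then 76.6, 186 and 1640 CPM. The lineage factor Gata6 had 12 and 2 reads at day 2 and 93, 150 and 633 in the GFP-positive libraries, and Sox17 had 3 and 1 and then 22, 45 and 200 reads. Ttr, a defining product of visceral endoderm, had 0, 1 and 23 reads. None of the 21 was at 0 in all GFP-positive libraries, but 4 had no read in either day-2 library. Those 4 could not have fallen, and genes with few day-2 reads hardly could. The absence of falls therefore carries little weight, and the median difference includes such genes.
The list had 14 higher genes without replicate 3, 21 within the first project (1 GFP-positive library) and none when either day-2 library was left out. Without day-2 replicate 1 and 2 the adjusted p was 0.0978 and 0.105 for Cubn and 0.18 and 0.169 for Col4a2. Without GFP-positive replicate 3 the log2 change was 4.41 for Cubn and 3.53 for Col4a2, where all 3 libraries gave 5.91 and 5.80. The part of endoderm cells in the other results was not tested.

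**Figure D5:**
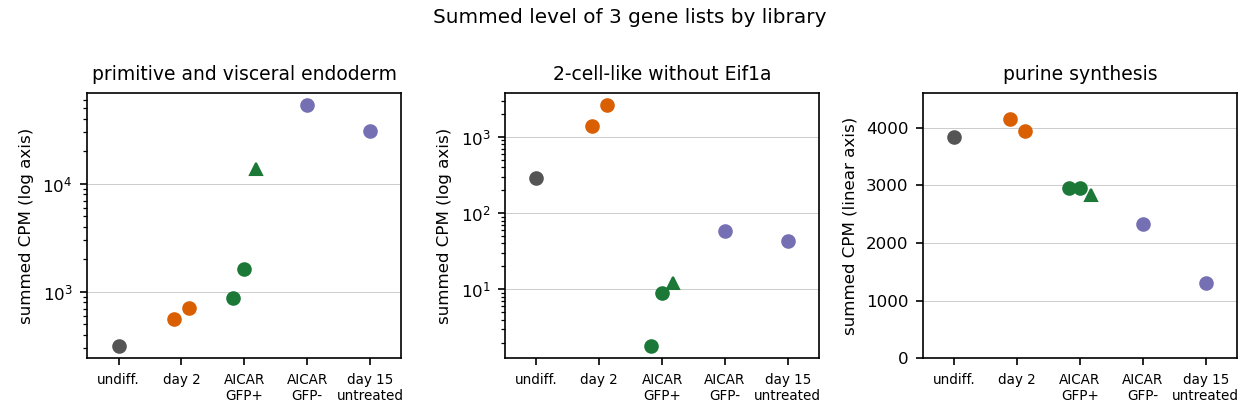
Summed CPM of 3 gene lists in single libraries (log axis for endoderm and 2-cell-like genes, linear axis from 0 for purine synthesis); each point is 1 library and the triangle is GFP-positive replicate 3. Endoderm sums run from 869 to 13692 CPM within the GFP-positive group, while 2-cell-like sums, drawn without Eif1a, lie between 1.79 and 12.2 CPM and purine sums between 2829 and 2949 CPM.

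Markers of other cells that the sample could hold are read against the 16.5% higher and 14.9% lower over all genes. Mesenchyme genes were close to these shares (4 up and 4 down of 24, 16.7% each), with Fn1, fibronectin, back at 1894, 1799 and 1784 CPM from 227 and 328 CPM and a level of 2004 CPM in undifferentiated cells. Skin and simple epithelium had 5 of 11 lower (45.5%): Cdh1, Epcam, Esrp1, Cldn4 and Cldn7. All 5 are also on the cell adhesion list, so this is no separate result. The keratins Krt5, Krt8, Krt14, Krt18 and Krt19 did not pass. Smooth muscle had 3 of 12 lower (25%), and heart muscle 1 of 7 higher and 2 lower (28.6%). Neural genes had 2 of 7 higher (28.6%) and 1 lower, and endothelial and blood genes 2 of 8 higher (25%) and 1 lower. Pecam1, an adhesion molecule of endothelium and of naive ES cells, was back at 79.8, 99.0 and 72.1 CPM from 20.6 and 16.2 CPM. None of the 9 trophoblast genes passed. Primitive streak genes had 3 of 11 higher (27.3%), among them Eomes, which reversed its day-2 fall with 16.9, 25.2 and 23.1 CPM (adjusted p of 0.0955 and 0.0527 without day-2 replicate 1 and 2), while T, brachyury, stayed at 0, 0.587 and 1.32 CPM against 0.389 and 0.584 CPM at day 2 (adjusted p = 0.873). Of 33 Hox entries only 9 had enough reads to be tested, and 2 were higher, each at a few CPM. These were Hoxb9, with 0 reads in both day-2 libraries, and the joined entry of Hoxa11 and Hoxa11as, with 0 and 1. With so few entries tested and so few reads at day 2, the 2 of 9 cannot be read against the share of all genes.

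Among the largest differences of the whole comparison were genes that replicate 3 carried to a high level. Aqp8, a water channel, had no read at day 2 and 10.8, 11.2 and 141 CPM in the GFP-positive libraries, at least 205-fold higher, or 53.5-fold from replicates 1 and 2 alone. Apoa1, the main protein of high-density lipoprotein and made by visceral endoderm, had no read at day 2 and 1.64, 1.76 and 19.2 CPM, at least 28.6-fold higher, or 8.27-fold from replicates 1 and 2 alone. Msc, a bHLH repressor, and Mog, a myelin glycoprotein, were at 0 reads at day 2 and did not follow replicate 3: Msc had 13.9, 12 and 3.31 CPM, at least 51.3-fold higher, and Mog had 4.77, 6.52 and 1.43 CPM, at least 22.7-fold higher. Without day-2 replicate 1 the adjusted p was 0.168 for Aqp8, 0.192 for Apoa1, 0.0602 for Msc and 0.0789 for Mog. Of the 10 largest falls 3 were on the 2-cell-like list (Tmem92, Tdpoz3 and Zscan4f). The others were A430089I19Rik, BC080695, Pramef6, Gm13078, Gm13083 and 2 joined entries of Gm4303 and neighbouring genes; Gm13078, Gm13083 and Pramef6 lost their call without day-2 replicate 2 (adjusted p from 0.0599 to 0.079). Tdpoz3, a gene with TD and POZ domains, was at 8.57 and 19.8 CPM at day 2 and at 0 reads in all 3 GFP-positive libraries, at least 175-fold lower.

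Promoter letters were counted over the windows of 250 bases before to 50 bases after the start site, which matched 9591 of the 13634 gene names tested. The Klf motif GGGTGGGG, on either strand, was present in 20.5% of the reversed falls and 21.1% of the reversed rises that matched, beside 15.1% of all. Its share was 21.8% in kept rises, 17.4% in kept falls, 13.6% in added rises and 21.6% in added falls, so it was not limited to reversed genes. The octamer ATTTGCAT was present in 1.1% and 2.94% of the same reversed genes beside 1.63% of all, the Sox motif CATTGT in 11% and 10.8% beside 8.98%, and the Esrrb motif TCAAGGTCA in none of either class beside 0.323%. No motif is contained in another. A count of letters in a window describes the sequence and says nothing of which factor acts there.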

How the data were processed

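Stranded mRNA libraries (KAPA) were sequenced from total RNA. The deposited counts are whole numbers of reads for each gene, which the authors obtained with rpkmforgenes on a RefSeq table for mm9, and the deposited RPKM values, checked but not tested, were computed by the authors without 3' untranslated regions, per the file headers. Reads were aligned with TopHat2 2.0.14 and Bowtie2 2.2.5 after Trimmomatic 0.3.3, per the submitters' processing notes. Whether counting used strand is not given in the sources used here.

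Entries of overlapping genes carry joined names. Counts of 6 libraries (3 AICAR GFP-positive, 2 day-2, 1 undifferentiated) were fitted together in edgeR 4.0.16 (R 4.3.3, glmQLFit and glmQLFTest). TMM factors came from all 19 libraries, the filter was filterByExpr (minimum count 10, total 15) and p-values were Benjamini-Hochberg adjusted over 13714 genes. The single undifferentiated library is assumed to vary like the other groups. A group without reads was given a floor of 3 reads, and ratios of 1 to 3 reads have a 95% counting interval; both cover counting error only. On simulated data of this comparison 26 of 100 2-fold and 95 of 100 4-fold changes were called among 13714 genes, with 9 false calls.

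Members, classes and the 32 lists (662 of 665 genes found) were chosen with earlier results of these data known. Named were fixed pluripotency markers, the 10 largest changes each way, the 8 leading members of each class and direction, and list members with the smallest adjusted p; the others named were chosen after their values were seen. Some of the genes this rule selects are not reported here. Alternatives were DESeq2 1.42.0, other scaling, no filter, all 19 libraries, left-out libraries, the sequencing project as a term or alone, other fold minimums and separate day-2 libraries for the 2 steps. List counts under these settings and the fold-only split of the day-2 libraries were added after seeing the data, as were the 2-cell-like sum without Eif1a and the bounds without replicate 3. Figures used matplotlib 3.10.9.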

Additional observations from a re-analysis of the deposited data

Results flagged for a closer look

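For 3 of the genes whose levels in the 8 colony lines were examined, 1 line stood apart, its gap to the nearest line being large against the range of all 8. The lowest Zfp42 level of the colony lines was 367 CPM against a median of 578 CPM. The highest Fgf5 level was 1.38 CPM against a median of 0.371 CPM, and the highest Inhbb level was 18.5 CPM against a median of 9.53 CPM. In all, 13 genes were examined, and chance flags about 1 in 20 groups.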

How the results depend on the processing

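The counts depended most on which libraries entered. Over the fits that left out 1 library each, higher genes ranged from 441 to 3140, lower genes from 374 to 3052, reversed genes from 203 to 1255, kept genes from 68 to 493 and added genes from 67 to 668; the lowest values came without a day-2 library and the highest without AICAR GFP-positive replicate 3. With all 19 libraries in one fit, 3338 genes were higher, 3105 lower, 1147 reversed, 496 kept and 558 added. Within the first sequencing project the counts were 3079, 2654, 1312, 599 and 641, and with the project as a term 2651, 2192, 1108, 525 and 544. With the day-2 change from one day-2 library and the later change against the other, 208 and 231 genes were reversed, 64 and 92 kept and 71 and 97 added. At least 2-fold, 1262 genes were higher and 1079 lower, and without a fold minimum 1039 were reversed, 434 kept and 955 added. DESeq2 (2236 higher, 2160 lower), both other scalings, no filter on low counts and the 5 libraries alone stayed within 1.5 times of the counts reported. The cause of these differences was not tested.

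Of the 113 named genes checked under other settings, those whose sign turned under a setting were not called in the report. Dppa5a turned to -0.11 with the project as a term and to -0.11 within the first project, and Tet3 to -0.23 in both. The second project holds only GFP-positive replicates 1 and 2. With the project as a term, the values and counts of GFP-positive against day-2 cells therefore rest on replicate 3, as within the first project. The 2 settings are not separate checks. Without single libraries, Bcl11a ranged from -0.30 to 0.12, Fgf4 from -0.23 to 0.33, Tet3 from -0.25 to 0.35 and T from -0.63 to 0.92, and Pou5f1 reached 0.00. Median differences over all genes lay between 0.01 and 0.09 on the log2 scale. No paired analysis was possible because the day-2 titles carry no replicate numbers. With 1 spread set for all genes, 26 of 100 simulated 2-fold changes were called. Real genes differ in spread, so this share need not be theirs. A gene without a call may still differ by 2-fold.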
